A study of Mus musculus with 8 samples.

Results

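The expression of 10 genes of the immediate early response and its feedback, *Fos*, *Fosl2*, *Jun*, *Junb*, *Jund*, *Egr1*, *Ier2*, *Dusp1*, *Dusp6* and *Zfp36*, was compared between tumor-educated macrophages (TEMs) with and without a deletion of *Phgdh*. The genes were taken by symbol from the 18635 genes of the deposited table, and each was found in 1 row. In PHGDH-deficient TEMs, 8 of the 10 genes fell and 2 rose. Of all 13629 genes tested, 20.3% were called as lower and 20.8% as higher (limma adjusted p under 0.05). *Egr1* and *Fos* fell the furthest, to 0.629 and 0.772 of the mean of control TEMs, while *Jund* rose to 1.10 and *Dusp1* to 1.18 of it.

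Immediate early genes are transcribed within minutes of a stimulus, without the need for new protein, when MAP kinases and calcium or cAMP signals act on transcription factors that already sit at their promoters. FOS and JUN proteins pair through leucine zippers to form the AP-1 factors, and EGR1 is a zinc finger factor induced by the same signals. The response also induces its own brakes. DUSP1 and DUSP6 are phosphatases that inactivate MAP kinases, and tristetraprolin, the product of *Zfp36*, binds AU-rich elements of cytokine mRNAs and promotes their decay. In macrophages these genes are known for their part in the response to microbial products, growth factors and cytokines.

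TEMs were bone marrow-derived macrophages (BMDMs) of C57BL/6 mice that had been differentiated in L929-conditioned medium and then kept for 24 h in AE17-TCM, a medium conditioned by the mouse mesothelioma line AE17. Control TEMs came from *Phgdh* fl/fl mice and PHGDH-deficient TEMs from *Phgdh* fl/fl *Cx3cr1*-Cre littermates, both aged 6 to 8 weeks at the collection of bone marrow according to the methods of the study. PHGDH is the first enzyme of serine synthesis from glucose. Both groups carried the floxed alleles and received the medium, and 4 samples of each were sequenced. The Cre takes the place of 1 *Cx3cr1* allele and is driven by its promoter, so the Cre and the lowered *Cx3cr1* dose cannot be told apart from the loss of *Phgdh*. No macrophages without TCM and none taken at an earlier time were compared here, so the values are levels at the end of the culture and not the size of an acute induction. The submitters call the samples biological replicates but do not say that they came from separate mice, and p-values measure the spread between these samples.

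The deposited values are normalized counts, that is, the reads of a gene scaled by the size factor of the sample, and the reads recovered from them totalled 38219563 to 47027420 per sample. *Phgdh* had normalized counts of 119, 129, 117 and 105 in control TEMs and 32.6, 35.3, 14.2 and 26.3 in PHGDH-deficient TEMs (log2 fold change -2.15, limma adjusted p = 5.1e-08). *Cx3cr1* fell from 1075 ± 94.2 to 659.8 ± 32.2 (SD, n = 4 per group, limma adjusted p = 1.9e-09). The 7 macrophage markers looked at were all measured, 3 were called as lower in PHGDH-deficient TEMs and 4 did not pass. The 3 were *Fcgr1* (log2 fold change -0.40, limma adjusted p = 7.4e-12), *Itgam* (-0.19, limma adjusted p = 7.0e-06) and *Adgre1* (-0.084, limma adjusted p = 0.00558). Summed normalized counts of the 7 were 986516 to 1075524 in control TEMs and 973612 to 1048997 in PHGDH-deficient TEMs. Most of each sum was *Lyz2*, which averaged 719688 and 705962. Of 6 T cell and 6 neutrophil markers, 1 each was in the table. The T cell marker *Cd4* summed to 15.8 to 16.6 in control and 7.88 to 26.3 in PHGDH-deficient TEMs, and the neutrophil marker *S100a8* to 467 to 575 and 576 to 631. Of the 5 B cell markers 2 were in the table, *Cd79b* among them, with sums of 197 to 253 and 131 to 167. *S100a8* was called as higher (log2 fold change 0.23, limma adjusted p = 0.0044) and *Cd79b* as lower (-0.63, limma adjusted p = 2.9e-05). The dendritic cell, fibroblast or mesothelial, erythroid and mast cell or basophil markers summed to at most 49.6 in a sample. The part of these markers in the results was not tested, and in bulk samples fewer cells of a type and less RNA per cell cannot be told apart.

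The bases just upstream of the RefSeq start site are given for *Fos*, *Jun* and *Dusp1*, which are among the genes with motifs of AP-1 and CREB type factors. *Junb*, in which TGACG began 106 bases before the start site, is not printed. The start sites that these mRNAs use were not measured. The sequences are from RefSeq on GRCm38.p6, the build of mm10, and run 5′ to 3′ on the strand of the gene. Capitals mark TGACG, TGACGTCA, TGACATCA and TATAAA. The *Dusp1* sequence stops where an exon annotated in GENCODE begins.
*Fos*, chr12:85473640-85473889 (+): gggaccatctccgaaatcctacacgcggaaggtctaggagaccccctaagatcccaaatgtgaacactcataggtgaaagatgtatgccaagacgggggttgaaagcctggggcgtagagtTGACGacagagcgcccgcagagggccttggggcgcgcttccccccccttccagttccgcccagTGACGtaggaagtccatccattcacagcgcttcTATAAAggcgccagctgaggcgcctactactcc
*Jun*, chr4:95052223-95052472 (-): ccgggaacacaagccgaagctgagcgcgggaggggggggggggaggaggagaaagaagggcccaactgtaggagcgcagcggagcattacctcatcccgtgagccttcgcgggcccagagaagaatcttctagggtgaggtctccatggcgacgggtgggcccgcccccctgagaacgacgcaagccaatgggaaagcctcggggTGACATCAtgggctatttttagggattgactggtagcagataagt
*Dusp1*, chr17:26508520-26508722 (-): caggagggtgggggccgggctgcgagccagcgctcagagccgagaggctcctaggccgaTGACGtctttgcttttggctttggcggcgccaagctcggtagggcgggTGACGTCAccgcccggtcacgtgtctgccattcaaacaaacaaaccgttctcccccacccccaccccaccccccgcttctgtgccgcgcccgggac

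In *Fos*, TGACG, the core of the cAMP response element, began 129 and 66 bases before the start site, and the TATA box TATAAA began 33 bases before it. In *Jun*, TGACATCA, a variant of the AP-1 site, began 45 bases before the start site. In *Dusp1*, the full cAMP response element TGACGTCA began 143 bases and a further TGACG 191 bases before the start site. The full element contains TGACG on both strands, so each match to it also counts as a match to the core.

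Promoters of 8 of the 10 genes were searched on both strands from 250 bases before to 50 bases after the start site. *Egr1* was left out and *Ier2* had no entry. TGACGTCA was found in 1 of the 8 promoters and in 1.79% of 32851 mouse promoters of the same length, and TGACG in 3 (*Fos*, *Junb* and *Dusp1*) against 20.8%. TGACATCA was found in 1 (*Jun*) against 3.62%, the letters TATAAA in 2 (*Fos* and *Junb*) against 13.6%, and the EGR core GCGGGGGCG in 2 (*Fosl2* and *Zfp36*) against 2.91%. In *Junb*, TATAAA began at the RefSeq start site itself and not before it. The AP-1 site TGANTCA was in 0 of the 8 against 7.81%, and the CArG box bound by SRF in 1 (*Zfp36*) against 1.63%. The 250 bases before the RefSeq starts of *Fosl2* and *Zfp36* lie wholly within annotated exons of these genes. The EGR core and CArG matches thus fell in annotated exons. The searched window of *Jund* lies wholly upstream of its annotated start. These matches are letters in a short window and not measured binding. The TGACG core was found in *Dusp1*, which rose, and in *Fos* and *Junb*, which fell, and its part in these changes was not tested.

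Across the table, 13629 genes averaged 10 or more normalized counts and were compared with limma on log2(normalized count + 1), and each log2 fold change below is PHGDH-deficient over control TEMs on that scale. At an adjusted p under 0.05, 41.0% of the genes tested were called, 20.3% as lower and 20.8% as higher, with a median log2 fold change of -0.0018 over all of them. The 10 genes all passed the filter and all 10 were called, 8 as lower and 2 as higher, with a median log2 fold change of -0.15. In 9 of the 10 genes the genotypes did not overlap (7 lower, 2 higher), as against 36.7% of the genes tested (18.2% lower, 18.4% higher), and *Junb* is the gene whose samples overlapped. With so large a share of the table called, a call on its own says little about a gene. The counts called in the gene lists below are likewise to be read beside the shares over all genes tested. The typical size of a called gene was a median absolute log2 fold change of 0.19. *Egr1*, *Fos*, *Dusp1* and *Fosl2* changed by more than that, and *Zfp36*, *Ier2*, *Jund*, *Dusp6*, *Jun* and *Junb* by less. The exact two-sided permutation test over the 70 labelings of 4 against 4 gave p = 0.0286, the smallest it can give, for each of the 10 genes except *Junb* (p = 0.0571).

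**Figure D1:**
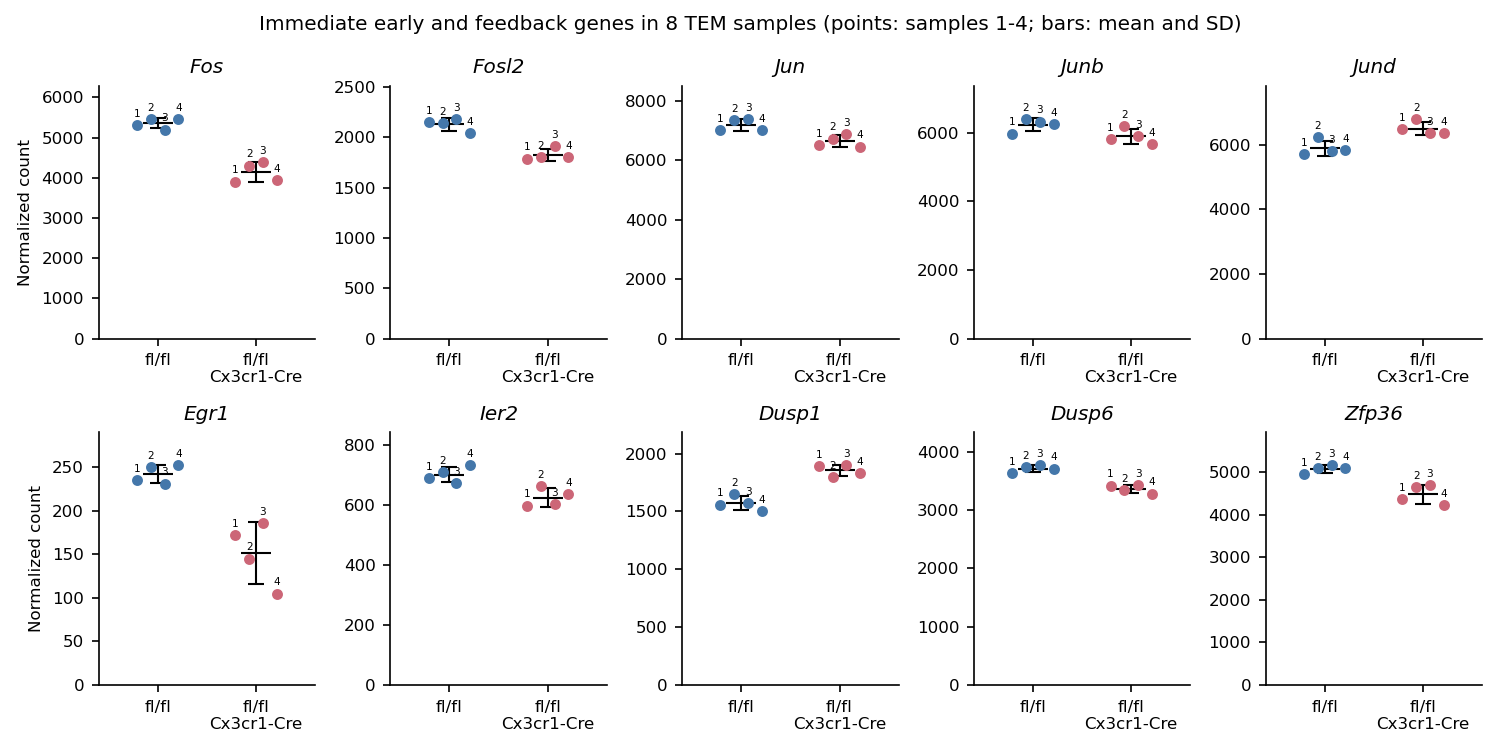
Normalized counts (y axis, from 0) of the 10 genes in each of 4 control (fl/fl) and 4 PHGDH-deficient (fl/fl Cx3cr1-Cre) TEM samples, with the replicate number at each point and bars for the mean and SD. The genotypes separate in each panel but that of *Junb*, where PHGDH-deficient sample 2, at 6188, lies above control sample 1, at 5968.

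Of the FOS family, both genes of the set fell. *Fos* (ENSMUSG00000021250, mm10 chromosome 12, plus strand, from 85473890 to 85477273) encodes the best known inducible partner of JUN. Its normalized counts were 5309, 5466, 5201 and 5454 in control TEMs, and 3903, 4304, 4391 and 3939 in PHGDH-deficient TEMs. The highest PHGDH-deficient sample thus lay below the lowest control, with PHGDH-deficient samples 1 and 4 under samples 2 and 3. The mean went from 5358 ± 127 to 4134 ± 249 (SD, n = 4 per group), a log2 change of -0.38 (standard error 0.03, 95% interval -0.45 to -0.30, limma adjusted p = 1.7e-08). In absolute size it exceeded 87.3% of the genes tested.

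*Fosl2* (ENSMUSG00000029135, plus strand of chromosome 5 from 32135801 to 32157842) encodes FRA2, a FOS relative without the strong activation domain of FOS. The samples gave normalized counts of 2153, 2138, 2182 and 2038 in control TEMs and 1786, 1803, 1912 and 1801 in PHGDH-deficient TEMs. The groups did not overlap, and PHGDH-deficient sample 3 stood above the other samples of its group. The mean fell from 2128 ± 62.7 to 1826 ± 58.3 (SD, n = 4 per group), a log2 change of -0.22 (standard error 0.03, 95% interval -0.29 to -0.15, limma adjusted p = 1.5e-05).

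The other FOS relatives were scarce. *Fosl1*, which encodes FRA1, had normalized counts of 119, 95.7, 84.8 and 115 in control and 50.6, 70.7, 64.0 and 63.2 in PHGDH-deficient TEMs and fell with a log2 fold change of -0.73 (limma adjusted p = 0.000313). *Fosb* lay between 12.4 and 23.9 in control and between 13.2 and 19.5 in PHGDH-deficient TEMs (log2 fold change -0.10, limma adjusted p = 0.809). Per length, as FPKM (reads scaled by exon length and by the depth of the sample), the 4 FOS genes summed to 58.9 ± 1.27 in control and 46.2 ± 2.74 in PHGDH-deficient TEMs (SD, n = 4 per group, exact two-sided permutation test p = 0.0286). Of that sum, *Fos* held 89.3% ± 0.350 of it in control and 88.8% ± 0.333 in PHGDH-deficient TEMs, and *Fosl2* 8.62% ± 0.402 and 9.54% ± 0.371 (SD, n = 4 per group, exact permutation p = 0.143 and 0.0571). These differences of -0.484 and 0.921 percentage points depend on the division by exon length, and without it they were -1.98 and 2.28 (exact permutation test, adjusted p = 0.0667 for both).

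The JUN family did not move in 1 direction, as *Jun* and *Junb* fell while *Jund* rose. *Jun* (ENSMUSG00000052684, minus strand of chromosome 4 from 95049034 to 95052222, a single exon) encodes c-JUN, the JUN protein with the strongest activation domain. Normalized counts were 7003, 7345, 7390 and 7006 in control and 6513, 6726, 6870 and 6454 in PHGDH-deficient TEMs. The nearest samples, control 1 and PHGDH-deficient 3, were close but did not overlap. The mean fell from 7186 ± 210 to 6641 ± 192 (SD, n = 4 per group), a log2 change of -0.11 (standard error 0.03, 95% interval -0.17 to -0.058, limma adjusted p = 0.00167), which is below the median size of a called gene.

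*Junb* (ENSMUSG00000052837, minus strand of chromosome 8 from 84974484 to 84978718) encodes a JUN protein that can act against c-JUN at some targets. Its normalized counts were 5968, 6400, 6320 and 6256 in control and 5807, 6188, 5890 and 5673 in PHGDH-deficient TEMs. These ranges overlap. The mean was 6236 ± 188 and 5889 ± 218 (SD, n = 4 per group), a log2 change of -0.083 (standard error 0.03, 95% interval -0.14 to -0.023, limma adjusted p = 0.025), the smallest of the set. The call was lost (limma adjusted p from 0.0521 to 0.105) when control sample 2, 3 or 4 or PHGDH-deficient sample 1 or 4 was left out, and also with scaling to the total of reads (0.0686) and without the mean-variance trend (0.112).

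*Jund* (ENSMUSG00000071076, plus strand of chromosome 8 from 70698949 to 70700616, a single exon) encodes the JUN protein that is the least dependent on stimulation. The samples gave normalized counts of 5704, 6238, 5796 and 5832 in control and 6474, 6797, 6364 and 6365 in PHGDH-deficient TEMs. The samples did not overlap, and sample 2 was the highest of both groups. The mean rose from 5893 ± 236 to 6500.03 ± 204 (SD, n = 4 per group), a log2 change of 0.14 (standard error 0.03, 95% interval 0.081 to 0.20, limma adjusted p = 0.000495).

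Summed per length, the 3 JUN genes came to 196 ± 5.93 FPKM in control and 199 ± 6.01 FPKM in PHGDH-deficient TEMs (SD, n = 4 per group, exact two-sided permutation test p = 0.514). This sum depends on the exon lengths used, 3189 bases for *Jun*, 2301 for *Junb* and 1668 for *Jund*, which give *Jund* the most weight per read. A sum without the division by length was not tested. Within the sum per length, *Jund* held 41.7%, 42.4%, 40.7% and 41.6% in control and 45.9%, 45.9%, 44.7% and 45.9% in PHGDH-deficient TEMs, a difference of 4.06 percentage points. *Jun* went from 26.5% ± 0.508 to 24.4% ± 0.628 and *Junb* from 31.9% ± 0.401 to 29.97% ± 0.262 (SD, n = 4 per group). The genotypes did not overlap for any of these 3 shares, and a share within a sample does not depend on the size factor. Each gave p = 0.0286 in the exact two-sided permutation test and an adjusted p of 0.0667 over the 7 shares of both families, so none passed the threshold. As 0.0286 is the smallest p this test can give, an adjusted p under 0.05 was possible only if most of the 7 shares reached it. The adjusted values therefore cannot decide whether the shares of *Jun*, *Junb* and *Jund* differ. *Fosl1* and *Fosl2* had an adjusted p of 0.08 in the same exact test, *Fos* 0.167 and *Fosb* 0.4.

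**Figure D2:**
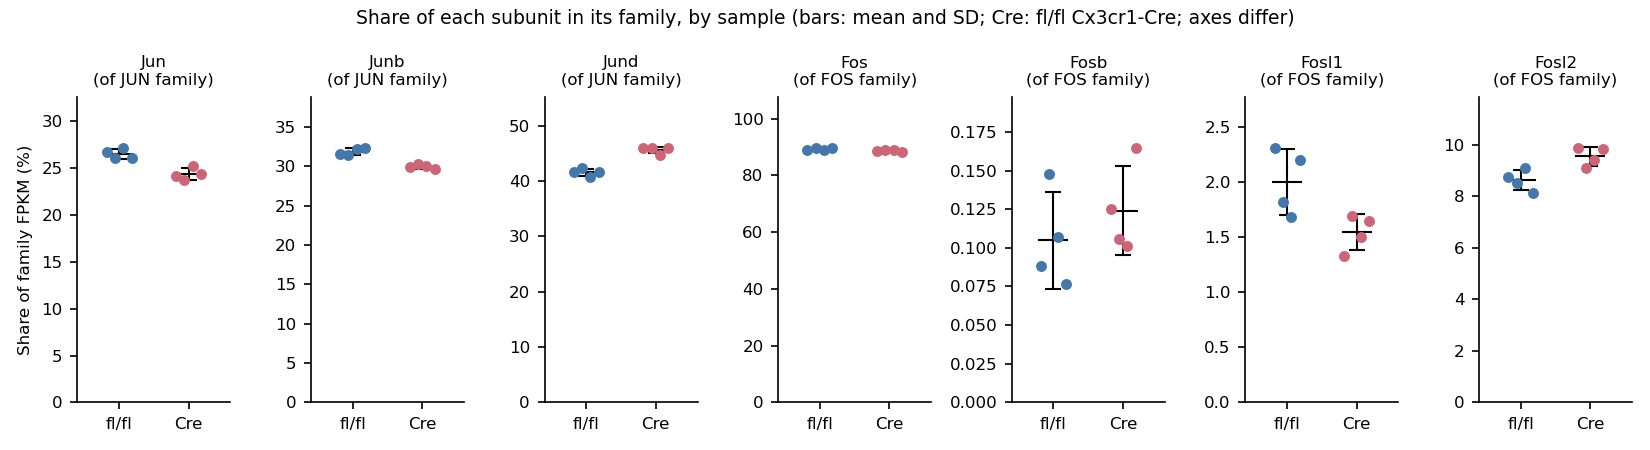
Share (%, y axes from 0 that differ in range) of each gene in the summed FPKM of its family in the 4 control (fl/fl) and 4 PHGDH-deficient (Cre) TEM samples, with bars for the mean and SD. The 4 PHGDH-deficient samples lie below the controls for *Jun* and *Junb* and above them for *Jund*, while the samples of *Fos*, *Fosb*, *Fosl1* and *Fosl2* overlap.

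Genes on the opposite strand overlap parts of these loci. The library kit keeps strand, but whether the counting used it is not given in the sources used here. Reads in the shared bases could thus belong to either gene, or may not have been counted. *Jund* shares 877 exon bases with *Gm11175*, an antisense RNA with normalized counts of 67.9, 135, 102 and 38.2 in control and 51.8, 235, 226 and 49.6 in PHGDH-deficient TEMs. These values are high in samples 2 and 3 of both genotypes and overlap between genotypes (limma adjusted p = 0.376), and they are far below those of *Jund*. The shared bases are a large part of the 1668 exon bases of *Jund*. The counts of *Gm11175* cannot show how many reads in them went uncounted. *Junb* shares 173 exon bases with *Prdx2*, a peroxiredoxin gene that fell from 7098 ± 331 to 6373 ± 148 normalized counts (SD, n = 4 per group, log2 fold change -0.15, limma adjusted p = 0.000238). *Jun* shares 232 bases with *Junos*, at 147 ± 18.2 and 161 ± 8.69 normalized counts (SD, n = 4 per group, limma adjusted p = 0.31). The part of these genes in the values of *Jund*, *Junb* and *Jun* was not tested.

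Of 14 other AP-1 and related leucine zipper genes tested, 4 fell, 2 rose and 8 did not pass, with a median log2 fold change of 0.030. Besides *Fosl1*, the largest changes were those of *Maf* and *Jdp2*. *Maf*, which encodes a leucine zipper factor of macrophages, had a normalized count of 25311 to 26277 in control and 18146 to 20623 in PHGDH-deficient TEMs (log2 fold change -0.39, limma adjusted p = 2.8e-09). *Jdp2*, whose product dimerizes with JUN and represses, had 427 to 434 and 344 to 390 (log2 fold change -0.23, limma adjusted p = 0.00328).

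*Egr1* showed the largest change of the set, at the lowest level. It lies on the plus strand of chromosome 18 (ENSMUSG00000038418). Normalized counts were 235, 250, 231 and 252 in control and 172, 145, 186 and 105 in PHGDH-deficient TEMs. The controls were tightly grouped, with a coefficient of variation of 4.43%, while the PHGDH-deficient samples, all lower, were spread out at 23.4%. The mean fell from 242 ± 10.7 to 152 ± 35.6 (SD, n = 4 per group), a log2 change of -0.70 (standard error 0.13, 95% interval -0.96 to -0.44, limma adjusted p = 0.000127). It exceeded 96.4% of the genes tested in absolute size. Without PHGDH-deficient sample 4, the lowest, the log2 fold change was -0.53 (limma adjusted p = 0.000212).

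The other EGR genes tested did not pass. *Egr2* had normalized counts of 1051 to 1224 in control and 1156 to 1275 in PHGDH-deficient TEMs (log2 fold change 0.072, 95% interval -0.026 to 0.17, limma adjusted p = 0.238). *Egr3* had 46.9 to 63.0 in control, and 38.3, 57.2, 36.6 and 35.98 in PHGDH-deficient TEMs (log2 fold change -0.39, limma adjusted p = 0.0898), where sample 2 alone reached the range of the controls. Of the corepressors that bind EGR proteins, *Nab2* fell from 1777 to 1439 normalized counts on average, without overlap (log2 fold change -0.30, limma adjusted p = 3.4e-07), and the log2 fold change of *Nab1* was -0.0027 (limma adjusted p = 0.938).

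*Ier2* (ENSMUSG00000053560, minus strand of chromosome 8 from 84661331 to 84662852, a single exon) encodes a small nuclear protein induced with FOS and JUN. Its normalized counts were 688, 709, 673 and 731 in control and 597, 663, 601 and 635 in PHGDH-deficient TEMs. The groups were close to each other, with 663 against 673 at the edge, but did not overlap. The mean fell from 700.1 ± 25.2 to 624 ± 31.0 (SD, n = 4 per group), a log2 change of -0.17 (standard error 0.05, 95% interval -0.27 to -0.063, limma adjusted p = 0.00994).

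Other immediate early genes went both ways. Of 24 tested, 8 rose, 6 fell and 10 did not pass, with a median log2 fold change of 0.017. *Klf2*, a zinc finger factor known to restrain inflammatory genes, fell from 1522 to 1152 normalized counts on average (log2 fold change -0.41, limma adjusted p = 3.3e-06), and *Myc* fell from 1271 to 977 (-0.38, limma adjusted p = 1.3e-07). *Plk2*, a polo-like kinase gene, rose from 10453 to 13494 (0.37, limma adjusted p = 2.3e-10). The orphan nuclear receptors of the NR4A family were split. *Nr4a1* had 558 to 643 in control and 456 to 496 in PHGDH-deficient TEMs (log2 fold change -0.31, limma adjusted p = 0.000109), and *Nr4a3* had 26.0, 25.8, 17.6 and 12.4 in control and 54.0, 45.7, 34.6 and 40.8 in PHGDH-deficient TEMs (1.10, limma adjusted p = 0.000875). *Nr4a2* overlapped at 46.5 to 74.4 and 47.8 to 64.0 (-0.15, limma adjusted p = 0.487).

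The phosphatase genes *Dusp1* and *Dusp6* changed in opposite directions. *Dusp1* (ENSMUSG00000024190, minus strand of chromosome 17 from 26505590 to 26562128) encodes a nuclear phosphatase known mainly for inactivating p38 and JNK in macrophages. The samples gave normalized counts of 1560, 1652, 1574 and 1503 in control and 1894, 1797, 1898 and 1831 in PHGDH-deficient TEMs. Each PHGDH-deficient sample lay above each control. The mean rose from 1572 ± 61.6 to 1855 ± 49.3 (SD, n = 4 per group), a log2 change of 0.24 (standard error 0.04, 95% interval 0.17 to 0.31, limma adjusted p = 1.2e-05). *Ergic1*, a gene of the opposite strand that shares 11 exon bases with it, fell (log2 fold change -0.18, limma adjusted p = 1.3e-05).

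*Dusp6* (ENSMUSG00000019960, plus strand of chromosome 10 from 99263231 to 99267489) encodes a cytoplasmic phosphatase selective for ERK, and its mRNA is widely used as a readout of ERK signalling. Normalized counts were 3630, 3729, 3762 and 3706 in control and 3413, 3344, 3420 and 3277 in PHGDH-deficient TEMs. The samples fell into tight groups without overlap. The mean fell from 3707 ± 55.8 to 3363 ± 67.1 (SD, n = 4 per group), a log2 change of -0.14 (standard error 0.03, 95% interval -0.19 to -0.086, limma adjusted p = 0.000182).

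Of 10 other dual-specificity phosphatase genes tested, 4 rose, 3 fell and 3 did not pass, with a median log2 fold change of 0.045. *Dusp4*, a nuclear phosphatase gene, rose, with 4902 to 5489 normalized counts in control and 6434 to 6924 in PHGDH-deficient TEMs (log2 fold change 0.38, limma adjusted p = 4.8e-09). *Dusp8*, whose product acts on JNK and p38, rose from 77.3 to 129 normalized counts on average (0.72, limma adjusted p = 6.7e-05). *Dusp5*, like *Dusp4* a nuclear phosphatase gene, fell, with 249 to 336 in control and 185 to 196 in PHGDH-deficient TEMs (-0.57, limma adjusted p = 1.6e-05). *Dusp2*, with 70.3 to 82.0 and 63.2 to 82.3, did not pass (0.012, limma adjusted p = 0.956).

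The Sprouty, Spred and RAS GTPase-activating genes, a further layer of feedback on the ERK route, were also mixed, with 2 of 8 higher, 3 lower and 3 not called (median log2 fold change -0.023). *Nf1* and *Rasa2*, which encode GTPase-activating proteins of RAS, rose with log2 fold changes of 0.29 and 0.18 (limma adjusted p = 2.8e-07 and 0.00679), although the samples of *Rasa2* overlapped. *Rasa1*, of the same function, fell (-0.25, limma adjusted p = 1.0e-07).

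*Zfp36* (ENSMUSG00000044786, minus strand of chromosome 7 from 28376784 to 28380253) had normalized counts of 4963, 5099, 5164 and 5098 in control and 4370, 4648, 4700 and 4227 in PHGDH-deficient TEMs. The samples did not overlap, and as for *Fos* the PHGDH-deficient samples 1 and 4 were the lower ones. The mean fell from 5081 ± 84.4 to 4486 ± 225 (SD, n = 4 per group), a log2 change of -0.18 (standard error 0.03, 95% interval -0.25 to -0.12, limma adjusted p = 6.5e-05). *Gm44710*, an antisense RNA that shares 125 exon bases with it, had 27.4 ± 4.28 and 36.4 ± 8.08 normalized counts (SD, n = 4 per group, limma adjusted p = 0.165).

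Among the relatives of *Zfp36*, *Zfp36l1* had 4413 to 4811 normalized counts in control and 3847 to 4350 in PHGDH-deficient TEMs (log2 fold change -0.16, limma adjusted p = 0.000801), and *Zfp36l2*, the more abundant at 9372 to 9909 and 9514 to 10041, did not pass (0.017, limma adjusted p = 0.619). Over 15 genes of the ZFP36 family, other AU-rich element binding proteins and the decay enzymes, 4 rose and 5 fell (median log2 fold change 0.017). *Elavl1*, whose product HuR stabilizes such mRNAs, fell (-0.23, limma adjusted p = 0.000176), and *Cnot6l* and *Xrn1*, a deadenylase and an exonuclease gene, rose (0.27 and 0.26, limma adjusted p = 4.1e-08 and 8.6e-05).

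Of 13 mRNAs with AU-rich elements that are known targets of tristetraprolin, 7 rose, 1 fell and 5 did not pass, with a median log2 fold change of 0.32, beside 20.8% higher and 20.3% lower over all genes tested. *Il12b* rose from 77.6 to 138 normalized counts on average (log2 fold change 0.83, limma adjusted p = 7.8e-06) and *Ptgs2*, which encodes the prostaglandin synthase COX-2, from 400.1 to 621 (0.64, limma adjusted p = 1.9e-07). *Il1a* rose from 40.3 to 63.2 (0.66, limma adjusted p = 0.0072), with an overlap in that PHGDH-deficient sample 3, at 49.8, lay below control sample 1, at 51.1. *Tnf*, the classical target, was named after its values were seen, and it had 3346 to 3618 in control and 3215 to 3464 in PHGDH-deficient TEMs (-0.050, 95% interval -0.11 to 0.014, limma adjusted p = 0.206). The gene that fell was *Plau*, which encodes urokinase (-0.35, limma adjusted p = 2.0e-09). These cytokine genes are also controlled by transcription, and mRNA decay was not measured.

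Upstream of the set, *Srf*, the factor of the serum response element, had 1080 to 1162 normalized counts in control and 986 to 1024 in PHGDH-deficient TEMs (log2 fold change -0.17, limma adjusted p = 0.00125). Its partner *Elk3* fell (-0.30, limma adjusted p = 1.5e-08) and its coactivator *Mkl2* rose (0.20, limma adjusted p = 1.5e-05). Over the 10 SRF, ternary complex factor and CREB genes, 3 rose, 2 fell and 5 did not pass (median 0.053). Of 30 MAP kinase cascade genes, 6 rose, 7 fell and 17 did not pass (median -0.018). *Braf*, which encodes a kinase that activates MEK, rose from 2590 to 3286 normalized counts on average (0.34, limma adjusted p = 2.1e-08). *Mapk11*, which encodes p38β, fell from 131 to 85.9 (-0.61, limma adjusted p = 0.000278), and *Map3k8*, which encodes the kinase TPL2, did not pass (-0.023, limma adjusted p = 0.648). The table holds mRNA, and phosphorylation of these kinases was not measured.

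**Figure D3:**
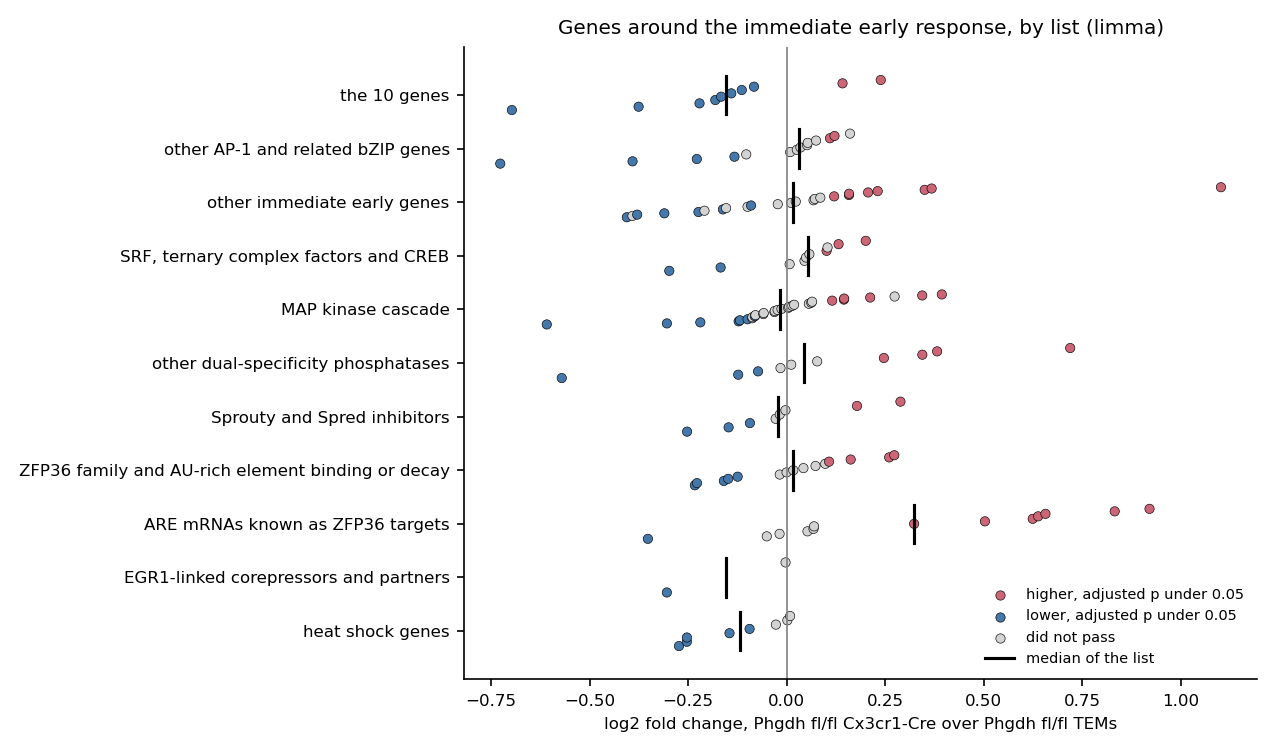
Log2 fold change (x axis, PHGDH-deficient over control TEMs, limma) of each tested gene (point) of the 10 genes and of 10 lists of related genes, with red for higher and blue for lower at an adjusted p under 0.05, grey for genes that did not pass, and a bar for the median. The 10 genes sit mostly left of 0 (median -0.15) and the tristetraprolin targets mostly right of it (median 0.32), while most other lists straddle 0.

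Heat shock genes, which are often induced in the handling of cells along with immediate early genes, were looked at beside the set. Of 8 tested, 5 fell and 3 did not pass, with a median log2 fold change of -0.12. Over all genes tested, 20.3% were called as lower and 20.8% as higher. *Hsp90aa1* fell, with 8773 to 9236 normalized counts in control and 7518 to 7758 in PHGDH-deficient TEMs (log2 fold change -0.25, limma adjusted p = 2.3e-08). *Hspe1* and *Hspa1b* fell with overlapping samples (-0.25 and -0.27, limma adjusted p = 0.00244 and 0.0483). The part of cell handling in the values of the 10 genes was not tested.

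**Figure D4:**
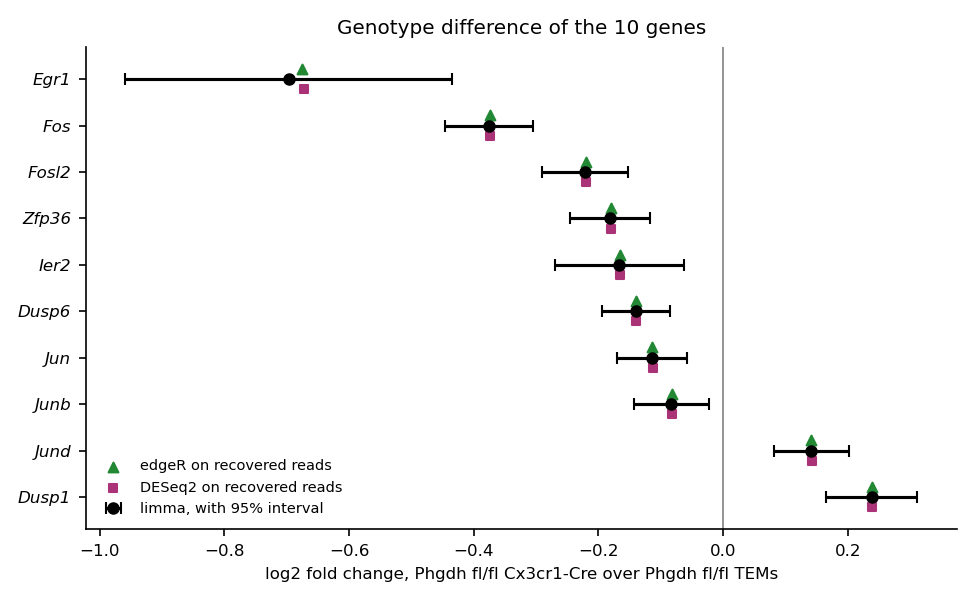
Log2 fold change (x axis, PHGDH-deficient over control TEMs) of the 10 genes by limma (black points with 95% intervals) and by edgeR (triangles) and DESeq2 (squares) on the recovered reads. The values of the 3 tools lie close together for each gene, from about -0.70 for *Egr1* to 0.24 for *Dusp1*, and no limma interval includes 0.

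Per length, the genes kept nearly the same order in both genotypes. *Jund* was the most abundant, at 81.5 ± 3.31 FPKM in control and 90.9 ± 2.98 FPKM in PHGDH-deficient TEMs, followed by *Junb* at 62.5 ± 1.84 and 59.7 ± 2.33 FPKM (SD, n = 4 per group). *Fos* and *Jun* came next and could not be told apart in control TEMs, with overlapping levels of 52.6 ± 1.28 and 52.0 ± 1.498 FPKM, whereas in PHGDH-deficient TEMs *Jun*, at 48.6 ± 1.51, lay above *Fos*, at 41.0 ± 2.56 FPKM, in each sample. *Zfp36* (33.8 FPKM in control and 30.1 in PHGDH-deficient TEMs) and *Dusp6* (27.3 and 25.0) followed. *Dusp1* and *Ier2* overlapped in control TEMs at levels of 10.96 and 10.6 FPKM and were apart in PHGDH-deficient TEMs at 13.1 and 9.56. *Fosl2* (5.07 and 4.40 FPKM) and *Egr1* (1.245 and 0.791 FPKM) were the lowest. These levels use annotated exon lengths. The RefSeq starts of *Jund* (70697739) and *Junb* (84978748) lie upstream of the annotated ones. Those of *Fosl2* (32136472), *Zfp36* (28379228) and *Dusp1* (26508472) lie within the annotated gene, and the annotated start of *Dusp1* is at 26562128. The lengths of these genes are thus less certain, and so are their levels per length and their places in the order. The level of *Jund* is also less certain because reads in the bases shared with *Gm11175* may not have been counted.

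The depth behind the values differed with the level, from 108 to 272 reads per sample for *Egr1* to 5789 to 7980 for *Jun*. The likeness of other genes to *Fos*, *Egr1* and *Dusp6* was measured as Pearson's r of log2(normalized count + 1) over the 8 samples among 133 listed genes, as a description in which the genotype difference itself takes part. The genes most like *Fos* were *Maf* (0.987), *Nab2* (0.981) and *Nras* (0.978). Those most like *Egr1* were *Maf* (0.905), *Zfp36l1* (0.889) and *Elavl1* (0.883). *Dusp6* was most like *Map2k3* (0.969), *Maf* (0.959) and *Dusp5* (0.958).

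Within the genotypes the genes also varied by sample. Control sample 1 lay below the mean of its group in 9 of the 10 genes and control sample 2 in 0. PHGDH-deficient sample 4 lay below the mean of its group in 9 of the 10 genes and was the lowest sample in 5. *Jun*, *Junb*, *Fos* and *Zfp36* each had their lower values in PHGDH-deficient samples 1 and 4. Over all tested genes, the second principal component (13.2% of the variance) set samples 1 and 4 of both genotypes, at 8.30 to 12, apart from samples 2 and 3, at -13.2 to -6.21. The labels name nothing that these samples share, both genotypes hold 2 samples of each kind, and the part of this difference in the spread of the 10 genes was not tested.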

How the data were processed

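RNA of 4 control (*Phgdh* fl/fl) and 4 PHGDH-deficient (*Phgdh* fl/fl *Cx3cr1*-Cre) TEM samples, grouped by the labels, was sequenced. The authors mapped single-end reads to mm10 with TopHat2, counted them per gene with HTSeq 0.6 and used DESeq2 for the comparison. Per gene and sample the authors deposited a signal, the read count after division by the size factor (0.889 to 1.09). Beside these the authors deposited log2 fold changes with standard errors, a Wald score, a p-value and an adjusted p-value, and these columns and the mean column were not used.

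Whole reads were recovered for 100% of 144353 values above 0, within 0.1 read, and totalled 38219563 to 47027420 per sample, so that counting error is small except for genes with few reads. Genes averaging 10 or more normalized counts were compared in R 4.3.3 by limma 3.58.1 (lmFit, eBayes with trend, log2(normalized count + 1), two-sided, Benjamini-Hochberg over 13629 genes, no covariate). A fold change on this scale understates the change of low genes. Shares, family sums and single genes were tested by exact permutation in Python 3.11.15 with scipy 1.17.1. Gene positions and exon lengths came from GENCODE M21 (18629 of 18635 genes matched).

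The 10 genes, the gene lists, the tests and the alternatives were chosen with earlier results of these data known. Besides the 10 genes, the text names from each list the 3 called genes with the largest absolute log2 fold change among those averaging 50 or more normalized counts, the other FOS, EGR, NR4A and ZFP36 family genes, *Srf*, *Map3k8*, *Dusp2*, *Dusp4*, *Dusp5*, *Phgdh* and *Cx3cr1*, and for likeness the 3 genes with the highest correlation. The result of 1 gene that this rule names is not reported here. *Nab1*, *Tnf*, *Plau*, the cell type markers given by name and the genes that overlap members were named after their values were seen. The alternatives were no filter, a filter at 50, a pseudocount of 0.1, scaling to total reads, quantile normalization, eBayes without trend, edgeR 4.0.16 (quasi-likelihood, TMM) and DESeq2 1.42.0 on the recovered reads, a replicate block, shares without length, and leaving out each sample. The fits were tested on simulated data. Correlations of the deviations of same-numbered samples were 0.0628, 0.0977, 0.126 and 0.0776, and the labels do not say that a number marks a shared origin, so the samples were not treated as paired.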

Additional observations from a re-analysis of the deposited data

Results flagged for a closer look

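Among 96 groups of 4 samples, those of the 10 genes and of the other genes named from the lists, 5 held a sample whose gap to the nearest of the others was too large a part of the range of the group (Dixon's test, 95% level), and chance gives such a gap in about 1 in 20 groups. Of the 10 genes, *Fosl2* had such a sample, PHGDH-deficient sample 3 at a normalized count of 1912, while the others of that group lay between 1786 and 1803. *Egr3* in PHGDH-deficient sample 2 was at 57.2, above the 35.98 to 38.3 of the others. *Klf2* in control sample 1 was at 1424, below the others at 1543 to 1564. *Il1a* in PHGDH-deficient sample 3 was at 49.8, below the others at 66.4 to 68.6. *Hspa1b* in PHGDH-deficient sample 4 was at 139, below the others at 158 to 159.8.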

How the results depend on the processing

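Under the 17 alternatives the number of the 10 genes called was 9 or 10 and the number of all genes called 4930 to 5917. With a sample left out in turn these were 9 to 10 and 4966 to 5917. The gene lost was *Junb* each time, with a log2 fold change of -0.068 under scaling to the total of reads and of -0.083 without the trend, where its adjusted p in limma was 0.0686 and 0.112. The other 9 genes kept direction and call under each alternative. Without the trend, 3 in place of 5 Sprouty, Spred and RAS inhibitor genes and 3 in place of 5 heat shock genes were called. With the filter at 50, the median of the tristetraprolin targets was 0.20 in place of 0.32, with 1 gene fewer tested. With a sample left out, the median of the other dual-specificity phosphatases ranged from -0.0039 to 0.128, so its sign was not stable. The share of *Jund* differed by 3.77 to 4.37 percentage points with a sample left out, and no share had an adjusted p under 0.05 in the exact permutation test. With a sample left out, the adjusted p of the *Jund* share was at least 0.08 and could not pass with 3 samples against 4, so those settings say nothing about stability. The fit with a replicate block called 5597 genes and all 10 of the set, so the pairing changed no call among the 10. Samples did not always correlate best with their own number. The deviations of control samples 1 and 4 correlated positively with those of PHGDH-deficient samples 1 and 4 (0.0628 to 0.135) and negatively with those of samples 2 and 3 (-0.124 to -0.0356), and samples 2 and 3 did likewise among themselves (0.0484 to 0.126) and against samples 1 and 4 (-0.104 to -0.0640). *Egr1*, with 108 to 272 reads per sample, is the gene with the fewest reads and the widest interval.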
